A study of Schizosaccharomyces pombe with 6 samples.

Results

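The outer flanks of centromere 2 of fission yeast (Schizosaccharomyces pombe) are the stretches from 25 to 150 kb outward from each edge of the centromere on chromosome II. They were taken as every non-control probe of the tiling array whose name gives chromosome 2 and a tile position from 1447500 to 1572200 on the left or from 1674100 to 1798800 on the right. This gave 832 of the 41251 chromosome probes, 416 on each side, at a spacing of 300 bp. Distance is counted outward from the centromere edges, which lie 25 kb inward of the inner limits. Tile positions are those of the array design, for which the sources used here give no genome build.

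Chromatin immunoprecipitation (ChIP) DNA was hybridised against whole-cell extract DNA of the same strain on 6 two-colour arrays. Asynchronous cultures in log phase (YEA medium, 30 °C) were cross-linked in 3% paraformaldehyde. Dimethylation of lysine 9 of histone H3 (H3K9me2) was profiled in wild type on 1 array and, also on 1 array, in cells labelled pds5D, a deletion of pds5. Pds5 tagged with GFP was mapped on 2 arrays of cells labelled wild type, 1 array of swi6D cells and 1 array of clr4D cells. Cells for the Pds5 arrays were held at 18 °C for 2 h before fixation, and the cross-linker DMA was added to it, so the 2 kinds of ChIP differ in more than the antibody. Whether the wild-type Pds5-GFP pair came from separate cultures is not stated in the labels, and their spread, on which the p-values rest, may be technical.

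Pericentromeric heterochromatin of fission yeast is built on repeats by the methyltransferase Clr4, which places methyl groups on lysine 9 of histone H3, and by Swi6, an HP1 protein that binds this mark and helps it to spread along neighbouring nucleosomes. Outside the repeats, boundary elements hold the mark back, and small islands of it lie over genes of meiosis whose transcripts are recognised by the RNA-binding protein Mmi1 and destroyed in growing cells. Pds5 binds cohesin, which encircles sister chromatids, and regulates how long it stays on DNA. Swi6 is known to recruit cohesin to centromeres.

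The ratio used throughout is log2 of the ChIP signal over the extract signal, centred on the median of the array. All 832 probes were well above background in both channels of every array and none was saturated. Spots flagged as outliers were left out, 15 of them in the flanks on the wild-type H3K9me2 array and from 0 to 5 on each of the others. Over the whole wild-type H3K9me2 array 1306 of 41551 non-control spots were flagged, the most of any array. The pds5D array had 111 and the Pds5-GFP arrays 2 to 99. The median signal of an array before the ratio was taken lay between 1116 and 1254 in the ChIP channel and between 1153 and 1326 in the extract channel. Both H3K9me2 arrays were on 1 slide, wild-type Pds5-GFP replicate 2 and swi6D on another, and the remaining 2 arrays on slides of their own. Extract DNA lacked each gene whose deletion is labelled. On the log2 scale relative to the array median of the extract signal, the 12 probes of pds5 lay at -6.99 in pds5D, the 3 probes of swi6 at -6.85 in swi6D and the 5 probes of clr4 at -6.55 in clr4D, against -1.13 to 0.39 for the same probes on the arrays of the other genotypes. Fragments were 500 to 1000 bp long, longer than the spacing of the tiles, so neighbouring probes read the same fragments in part. With 1 array per genotype, no difference in H3K9me2 was tested, and every such value below describes these 2 arrays.

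The highest H3K9me2 in the flanks lay over mei4, the forkhead transcription factor that drives the middle phase of meiosis and a target of Mmi1. In RNA the Mmi1 recognition motif is written UNAAAC. The stretch of the mei4 coding sequence with the most copies of this motif in 200 bases is shown because it lies under that peak. It is bases 619 to 818 of the 1554-base coding sequence, on the plus strand at II:1473812-1474011 of the RefSeq reference ASM294v3, which is not the coordinate system of the tiles. Copies of TNAAAC, the motif as DNA, are in capitals.
mei4: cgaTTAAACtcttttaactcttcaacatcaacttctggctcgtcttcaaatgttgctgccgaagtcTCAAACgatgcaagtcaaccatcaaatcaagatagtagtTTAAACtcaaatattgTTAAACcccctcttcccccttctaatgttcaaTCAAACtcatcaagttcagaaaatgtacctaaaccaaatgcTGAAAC
The stretch holds 6 copies on the sense strand. The whole coding sequence holds 10 copies on the sense strand and 5 on the antisense strand. Of 5096 annotated coding sequences of at least 200 bases, 78.6% had at least 1 copy in some window of that length on the sense strand, and 4 (0.0785%), mei4 included, had a window with 6 or more. No antisense strand had such a window. Among the 94 genes measured in the flanks, the next highest count in a window was 3. The protein-coding genes byr2 and mrpl7, described below, had 1 copy each in their richest sense window. Whether copies of the motif bear on H3K9me2 was not tested.

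In wild-type cells the flanks carried a broad, low level of H3K9me2, and the 2 sides differed in how it fell with distance. The median ratio was 0.95 on the left and 0.74 on the right, against 2.01 over the 166 probes of the innermost 25 kb, 0.08 between 150 and 300 kb and -0.01 over all other chromosome probes. On the right the ratio fell over the first 4 windows. Its medians in successive windows of 25 kb from the centromere outward were 1.79, 1.12, 0.65, 0.34 and 0.34. On the left it fell from 1.27 in the window nearest the centromere to 0.84 at 50 to 75 kb, and the next windows stood at 0.91, 0.99 and 0.85. The outermost of these was uneven, with 5 kb medians that ran from 1.45 beside mei4 to 0.35 in each of the last 2 bins. Farther out the median was 0.40 between 150 and 200 kb and 0.09 between 200 and 250 kb. The nearest window exceeded the farthest by 1.44 on the right and by 0.42 on the left, and on the ChIP channel alone by 2.44 and 0.75.

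The ratio in pds5D was higher than in wild type over most of the flanks and lower in the innermost 25 kb. The median was 1.36 on the left and 1.40 on the right in pds5D, which is 0.40 and 0.66 above wild type. Of 817 probes measured on both arrays, 655 (80.17%) were higher in pds5D, 324 of them on the left and 331 on the right. Over all chromosome probes 50.4% were. In the innermost 25 kb the median was 1.76 in pds5D, 0.25 below wild type, and 44 of 165 probes (26.67%) were higher. These sizes depend on how the 2 arrays are scaled. The ratios of the pds5D array were spread more widely, with a median absolute deviation of 0.446 against 0.355 in wild type. With both arrays brought to the same deviation, an alternative chosen after the data were seen, the flank difference was 0.14 on the left and 0.42 on the right. With both brought to the same standard deviation it was 0.24 and 0.43.

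The difference between the arrays was not even along the flanks. On the left the windows of 25 kb differed by 0.44, 0.60, 0.46, 0.16 and 0.19 from the centromere outward. The 3 inner windows stood at 1.72, 1.44 and 1.38 in pds5D and the 2 outer ones at 1.15 and 1.04. On the right the windows differed by 0.06, 0.60, 1.14, 0.15 and 0.51. There the level in pds5D did not fall over the first 75 kb of the flank. It was 1.85 at 25 to 50 kb, 1.71 at 50 to 75 kb and 1.80 at 75 to 100 kb, and then 0.49 in the fourth window, from 100 kb outward, and 0.86 in the outermost, which ends at 150 kb. Between 75 and 100 kb on the right, all 83 probes measured on both arrays were higher in pds5D (100%). Under the 8 other ways of processing the arrays the difference in that window lay between 0.77 and 1.20. The window at 25 to 50 kb on the right, where the arrays hardly differed, lay between -0.35 and 0.08 under the same alternatives, and the 2 outer windows of the left flank between -0.08 and 0.34 and between -0.02 and 0.21.

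**Figure D1:**
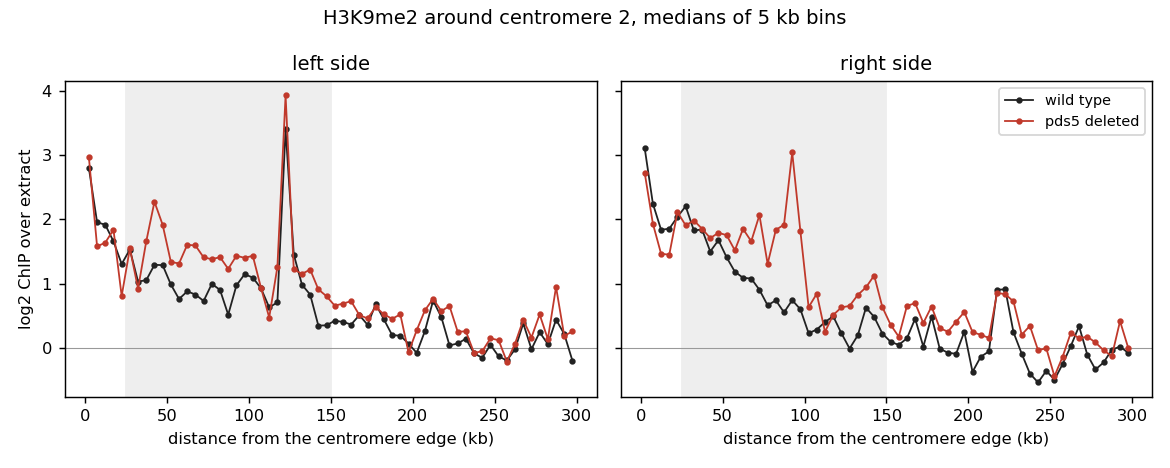
H3K9me2 as log2 of ChIP over extract (median of each 5 kb bin) against distance from the left and right edge of centromere 2, with 1 line per array and the outer flanks shaded. In wild type the right side falls over the first 75 kb of the flank and the left side varies from bin to bin (0.52 to 1.15 from 50 to 120 kb), peaks over mei4 and drops to 0.35 in the last 2 bins of the flank, and the pds5D line runs above wild type over most of both flanks, with its highest right-hand bin at 90 to 95 kb.

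In bins of 5 kb, pds5D was above wild type in 22 of 25 bins on the left and 23 of 25 on the right. In wild type, 9 bins on each side had a median of 1 or more, and the farthest of these ended at 130 kb on the left and at 70 kb on the right. In pds5D, 20 bins on the left and 16 on the right reached 1, out to 140 kb and 145 kb. The order of the bins by level followed distance closely on the right in wild type, with a Spearman rho of -0.92 over 25 bins, and less closely in pds5D (-0.68). On the left rho was -0.39 in wild type and -0.55 in pds5D. Neighbouring bins share fragments and all bins share 1 array, so these are descriptions. The bin with the highest level in wild type began at 120 kb on the left and held mei4, at 3.40 against 3.93 in pds5D, and in pds5D the highest right-hand bin was 90 to 95 kb, at 3.04 against 0.74 in wild type.

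A probe was counted as enriched where the running median over it and its 2 neighbours reached a ratio of 1. In wild type 332 of 830 flank probes (40%) were enriched, against 8.35% of all chromosome probes. In pds5D 584 of 832 (70.2%) were, against 13.1% of all. The 302 probes enriched on both arrays were 91.0% of the wild-type probes and 51.7% of those of pds5D. This overlap was not computed over all chromosome probes, so it does not set the flanks apart. With the standard deviations made equal the shares of flank probes enriched were 18.9% and 44.7%. In wild type the longest unbroken run on the right covered 33300 bp from the inner limit of the flank outward, from cdc28 to pfa3, and the longest on the left covered 9900 bp over wdr8, cdk9, mei4 and act1. In pds5D the longest runs covered 26400 bp on the left, from wdr74 to ucp8, and 25200 bp on the right, from mrpl51 to ceg1. Median wild-type ratios over those 2 runs were 0.85 and 1.0.

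At the limits of the rule the values did not step evenly. On the left the last probe inside the inner limit stood at 1.19 in wild type and 1.21 in pds5D, and the next probe inward at 2.67 and 0.69. On the right the corresponding probes stood at 2.34 and 2.07 inside, and 1.82 and 1.60 outside. At the outer limit on the right they stood at 0.92 and 1.23 inside and 0.67 and 0.96 outside. At the outer limit on the left the inside probe was an outlier in wild type and stood at 0.57 in pds5D, and the outside probe stood at 0.42 and 0.38.

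The flanks hold 112 annotated protein-coding genes, of which 94 had the 3 probes needed for a value, 46 on the left and 48 on the right. Each gene is given as the mean of its probes. In wild type 33 of the 94 had an H3K9me2 ratio of 1 or more, against 6.82% of all 4578 genes measured, and in pds5D 71 had, against 11.2%. In pds5D 81 of the 94 lay above wild type, where 48.4% of all genes did, and the median difference was 0.45, against -0.01 over all genes. By a rule of size, which asks that the arrays differ by 1 or more and that at least 1 of them reaches 1, 9 flank genes were higher in pds5D and 0 were lower. Of all genes, 1.94% were higher by this rule and 0.197% were lower. With the median absolute deviations made equal, 63 of the 94 lay above wild type, 4 were higher by the rule and 1, mei4, was lower. Of all 4578 genes at that setting, 49.5% lay above wild type, 53 were higher by the rule and 61 lower. With the standard deviations made equal 2 flank genes were higher, against 30 of all genes. After loess 5 were, against 72 of all genes.

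The highest single gene was the same on both arrays. mei4 stood at 4.85 in wild type and 4.91 in pds5D, the highest of the 94 on both arrays. Its highest probe reached 5.26 in wild type and 5.49 in pds5D. Both arrays put its level far above that of every other flank gene, and the difference between them was 0.06 as processed here and between -1.05 and 0.08 under the alternatives. Its neighbours shared the peak. cdk9, the kinase of the elongation factor P-TEFb, which shares a probe with mei4, stood at 2.45 and 2.66, and act1, which encodes actin, at 2.32 and 2.61. The run of probes at a ratio of 2 or more covered tiles 1472700 to 1477500 in wild type, with a median of 3.40 there and 3.93 in pds5D. It lay 119.7 to 124.5 kb from the centromere edge, beyond stretches of the left flank with 5 kb medians of 0.63 and 0.71 in wild type. pat1, the kinase that holds cells back from meiosis, had the highest wild-type value of the right flank, 2.32, against 2.53 in pds5D. meu25, which takes its name from meiotic expression, stood at 0.96 and 0.80, and mug93 at 0.92 and 1.01. Both lay close to the median of the left flank in wild type (0.95) and below it in pds5D (1.36). mug124 on the right stood at 1.5 and 1.63.

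Of the 9 genes past the rule of size, 5 lay together on the right, 83.6 to 96.9 kb from the centromere edge, among them the 4 with the largest differences of the 94. byr2, the MAP kinase kinase kinase of the mating pheromone pathway, stood at 0.74 in wild type and 3.27 in pds5D, the highest value of the right flank on that array. mrpl7, a protein of the mitochondrial ribosome, stood at 0.47 and 2.79. In wild type these 2 genes held ranks 24 and 35 of the 48 on that side, and in pds5D they held ranks 1 and 2. mlo3, an RNA-binding factor of mRNA export, stood at 0.52 and 1.97, ebs1 at 0.47 and 1.81, and osh2, a member of the oxysterol-binding protein family, at 0.70 and 1.82. A run of 19 probes at a ratio of 2 or more in pds5D, tiles 1739700 to 1745100, crossed ebs1, mrpl7 and byr2 with a median of 3.04, and wild type stood at 0.77 over the same tiles. Under the alternatives the difference lay between 1.74 and 2.55 for byr2 and between 1.59 and 2.33 for mrpl7, and both met the rule of size in all 8. ebs1 and mlo3 met it in 7 of the 8 and osh2 in 5. At the next genes outward the gap was smaller, though pds5D was still higher. clg1 stood at 0.61 and 1.43 and scr1 at 0.31 and 0.81.

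**Figure D2:**
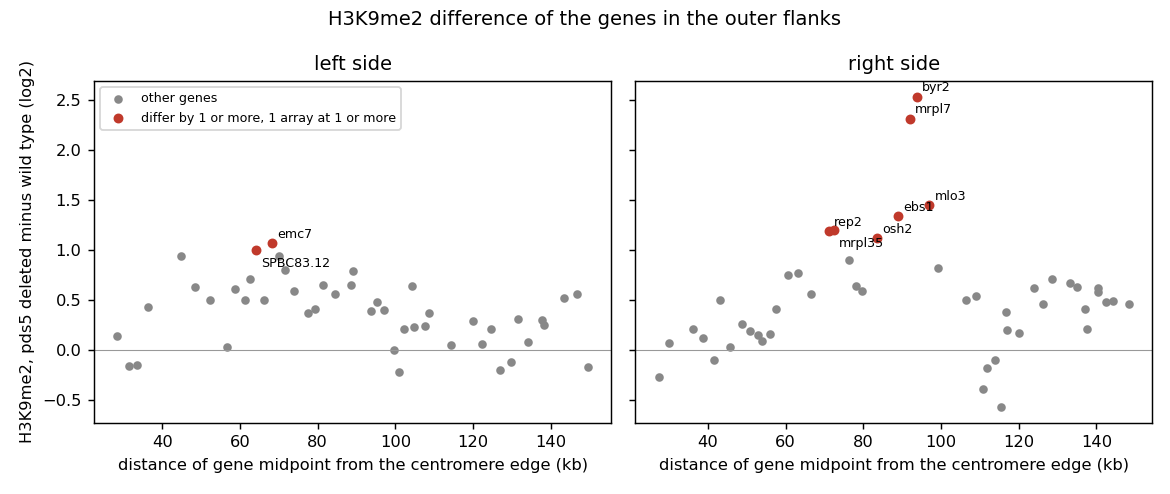
Difference in H3K9me2 (pds5D minus wild type, log2) of the 94 genes against the distance of the gene midpoint from the left and right edge of centromere 2, with 1 point per gene and the 9 genes that met the rule of size in red. The right flank has a group of 5 red genes between 83.6 and 96.9 kb with byr2 and mrpl7 above 2, and 13 of the 94 points lie below 0.

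The other genes past the rule of size lay between 64.1 and 72.4 kb. rep2, an activator subunit of the transcription factor complex MBF, stood at 1.22 in wild type and 2.41 in pds5D, and its neighbour mrpl35, of the mitochondrial ribosome, at 0.84 and 2.04. On the left, emc7, a subunit of the ER membrane protein complex, stood at 0.93 and 2.00, and SPBC83.12 at 0.71 and 1.71. These calls depended more on the processing, since rep2, mrpl35 and emc7 met the rule in 5 of the 8 alternatives and SPBC83.12 in 2 of the 7 that gave it a value. lin1, at 0.94 and 1.89, missed the rule narrowly, as did isp4, an oligopeptide transporter, at 1.67 and 2.61. The probes over isp4 formed a run of 14 at a ratio of 2 or more in pds5D, tiles 1551300 to 1555200, where wild type had a median of 1.53.

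H3K9me2 was lower in pds5D at 13 of the 94 genes, at none of them by 1 or more. On the right, trs20, a subunit of the TRAPP tethering complex, stood at 0.88 in wild type and 0.31 in pds5D, fis1, of mitochondrial fission, at 0.54 and 0.16, and pmt1, the yeast relative of the Dnmt2 tRNA methyltransferases, at 2.05 and 1.78. trs20 and fis1 lie at 111 to 115 kb, in a window where the mark was low on both arrays, with medians of 0.34 in wild type and 0.49 in pds5D. pmt1 lies at 27.3 kb, beside the innermost 25 kb where pds5D was also lower. On the left, sws1 stood at 1.28 and 1.06, wdr8 at 1.60 and 1.40 and prp5 at 0.34 and 0.18. Of these genes, pmt1, trs20, sws1 and prp5 were lower in pds5D under all 8 alternatives. fis1 and wdr8 were each higher under 1 of the 8.

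Of genes listed by function, few lie in the flanks. tas3, a subunit of the RITS complex that links small RNAs to heterochromatin, was the single member of 18 heterochromatin factors, and stood at 0.79 in wild type and 1.44 in pds5D. No gene of the lists of cohesin subunits and regulators or of heat shock proteins and no Tf2 element lies there. mei4 was the single member of 11 Mmi1 targets. his3, of histidine synthesis, stood at 0.86 and 1.10, and fba1, the glycolytic aldolase, at 1.37 and 1.27. The ribosomal protein genes numbered 8, of which rpl802 stood at 0.75 and 1.34, rpl701 at 0.12 and 0.61, and 6 had too few probes. The 2 probes nearest the tRNA gene SPBTRNATHR.06, at 92.4 kb on the left, averaged 1.53 and 1.32, and those nearest SPBTRNATRP.03, at 127 kb on the right, 0.46 and 0.98.

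Over both flanks together the median of Pds5-GFP was not raised, and its highest values lay in a few separate peaks. The flank medians were 0.00 and 0.01 in the wild-type arrays, -0.01 in swi6D and -0.05 in clr4D. Enriched probes numbered 63 and 56 of 832 in the wild-type arrays (7.57% and 6.73%), 47 in swi6D and 58 in clr4D, against 6.76%, 7.27%, 5.96% and 7.03% of all chromosome probes on the same arrays. At a ratio of 1 the shares of the flanks were near those of the chromosomes. At a running median of 0.5 the right flank stood higher, with 138 and 148 of 416 probes in the wild-type arrays. The left flank had 73 and 68 of 416. Over all chromosome probes 19.9% and 20.7% reached 0.5 on the same 2 arrays. The wild-type arrays followed each other closely, with r = 0.95 across 827 flank probes, which are not independent replicates.

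From window to window, Pds5-GFP showed no steady fall with distance. The wild-type medians of the nearest window exceeded those of the farthest by 0.02 on the left and 0.26 on the right, and on the right by 0.02 after loess and by 1.04 on the ChIP channel alone. On the left the ChIP channel alone gave 0.25 and means over probes 0.15. On the left the 25 kb windows ran 0.18, 0.10, -0.20, -0.26 and 0.20 from the centromere outward in wild-type replicate 1 and 0.18, 0.16, -0.37, -0.36 and 0.12 in replicate 2. On the right they ran 0.50, 0.55, -0.01, -0.42 and 0.24 in replicate 1 and 0.59, 0.65, 0.09, -0.57 and 0.33 in replicate 2. Of 500 windows of 25 kb over the 3 chromosomes, 5.6% and 7.8% had a median of 0.5 or more in replicates 1 and 2. Both arrays were lowest in the fourth window of the right flank, from 100 kb outward, where H3K9me2 was also low on both of its arrays.

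**Figure D3:**
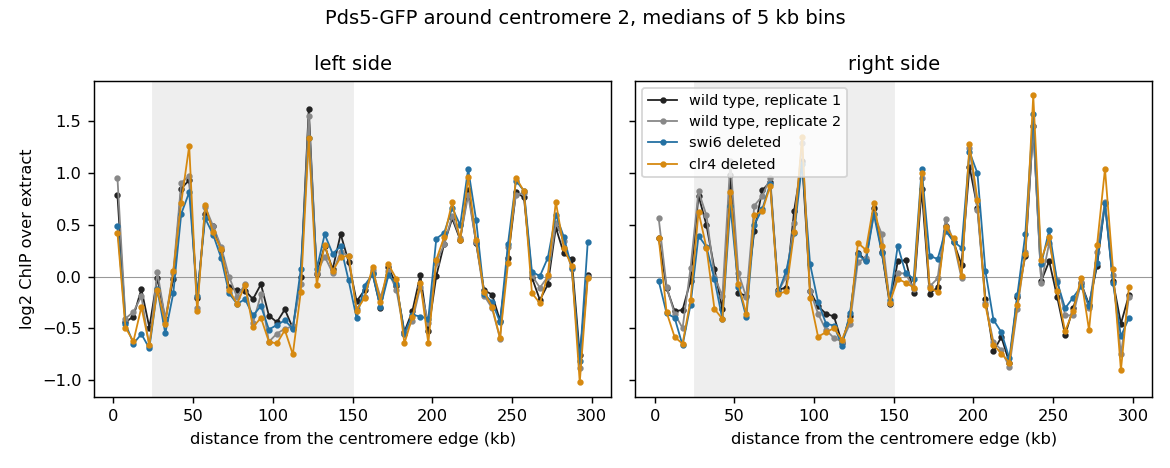
Pds5-GFP as log2 of ChIP over extract (median of each 5 kb bin) against distance from the left and right edge of centromere 2, with 1 line for each of the 4 arrays and the outer flanks shaded. The 4 lines run close together, and each has its highest flank bin over mei4 on the left (from 120 kb outward) and at 90 to 95 kb on the right.

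The Pds5-GFP peaks lay over genes named above. mei4 had the highest value of the 94 genes, 1.94 and 1.87 in wild type, 1.56 in swi6D and 1.70 in clr4D. isp4 stood at 1.35 and 1.42 in wild type, 1.04 in swi6D and 1.46 in clr4D. On the right, mrpl7 stood at 1.24 and 1.28, 1.12 and 1.35 in the same order, SPBC19C2.10 at 1.25 and 1.26, 0.95 and 1.09, rep2 at 1.15 and 1.06, 1.12 and 1.05, and byr2 at 0.92 and 1.24, 1.12 and 1.34. The wild-type arrays differed by more over byr2 than over the others, and there swi6D lay between them and clr4D above both. The bins with the highest Pds5-GFP on each side, the one over mei4 on the left and 90 to 95 kb on the right, were also the bins with the highest H3K9me2 in pds5D.

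At 53 probes the running median of Pds5-GFP reached 1 in both wild-type arrays. Those probes had a median H3K9me2 of 1.59 in wild type and 2.52 in pds5D, against 0.86 and 1.31 at the other 779. The Pds5-GFP ratio of wild-type replicate 1 correlated across flank probes with H3K9me2 at r = 0.46 in wild type (816 probes) and at r = 0.64 in pds5D (831 probes). Over all other chromosome probes the same correlations were 0.51 and 0.50. Probes share fragments and base composition, so these are descriptions. Pds5-GFP was mapped in cells that carry pds5, and the H3K9me2 values of pds5D come from cells that lack it.

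**Figure D4:**
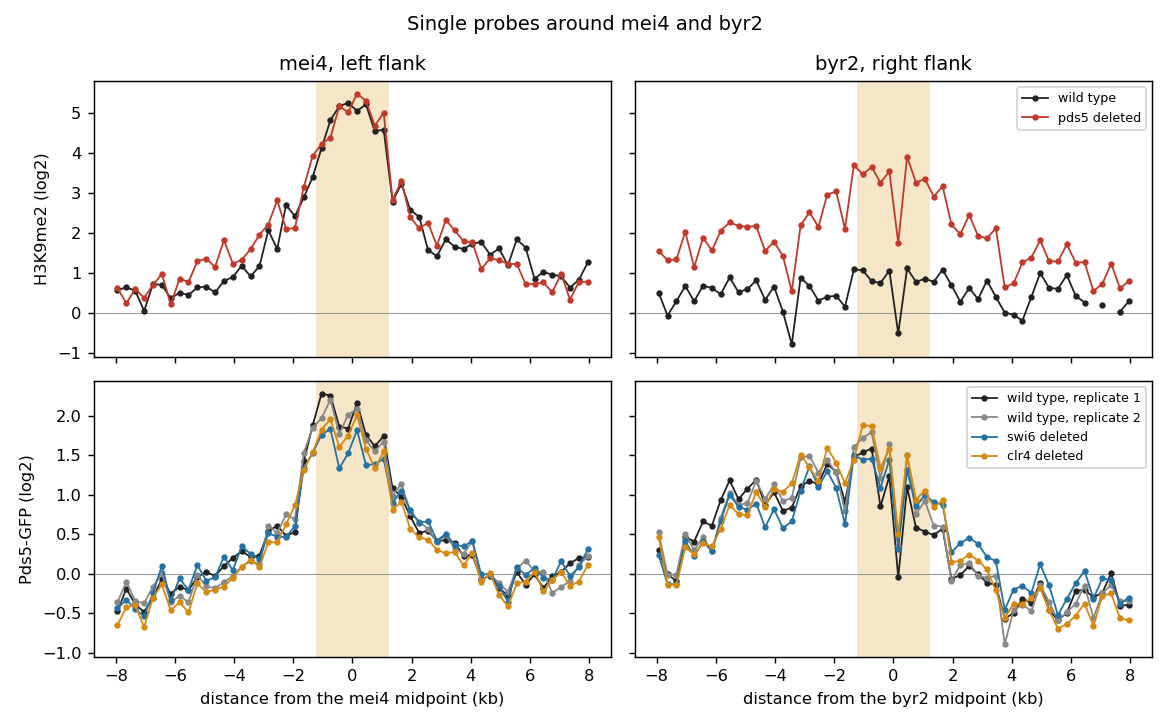
Single probes within 8 kb of the midpoints of mei4 (left panels) and byr2 (right panels), with distance from the midpoint increasing away from the centromere, the span of the gene's probes shaded, H3K9me2 (log2) above and Pds5-GFP (log2) below. Over mei4 both H3K9me2 arrays peak, with gene means of 4.85 and 4.91, and so do all 4 Pds5-GFP arrays, whereas over byr2 H3K9me2 averages 0.74 in wild type and 3.27 in pds5D and the 4 Pds5-GFP lines overlap.

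Pds5-GFP was lower in swi6D at a few of the 94 flank genes, 3 of them in the right flank nearest the centromere. The genes called were too few to set the flanks apart from all genes, and their number depended on the processing. With limma across 4578 genes, 5 flank genes fell in swi6D at an adjusted p under 0.05 and 0 rose. Over all genes 3.36% fell and 0.765% rose. The wild-type pair gave the fit its single residual degree of freedom (1). The lone mutant arrays were taken to vary as much as that pair. The prior of the fit had infinite degrees of freedom, so a spread pooled over all genes served each gene. The standard error was therefore 0.104 for every gene. The p-values thus draw on many genes of 1 pair of arrays, not on many arrays. pmt1 stood at 0.83 and 0.82 in wild type and 0.32 in swi6D, and fell by 0.51 (limma, adjusted p = 0.000102). ubp11, a ubiquitin-specific protease, stood at 0.82 and 0.71 in wild type and 0.36 in swi6D, and fell by 0.41 (limma, adjusted p = 0.00476). sre1, the precursor of the sterol-responsive transcription factor, stood at 0.63 and 0.76 in wild type and 0.33 in swi6D, and fell by 0.37 (limma, adjusted p = 0.0165). For each of these 3 genes swi6D lay below both wild-type arrays by more than they differed.

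The 2 genes with the highest Pds5-GFP on the left, mei4 and isp4, fell by 0.34 each in swi6D, from the values given above (limma, adjusted p = 0.0301 and 0.0317). pmt1 was called under every alternative that gave a test, with adjusted p between 4.32e-05 and 0.0467. The call of ubp11 was lost on the ChIP channel alone (limma, adjusted p = 0.994). That of sre1 was lost there (limma, adjusted p = 0.854) and after loess (0.194). Those of mei4 and isp4 were lost in the deposited ratios (limma, adjusted p = 0.0578 and 0.0603), after loess (0.152 and 0.124), with equal standard deviations (0.926 and 0.472), with equal median absolute deviations (0.107 and 0.0716) and on the ChIP channel alone (0.994 each). Over all chromosome probes the swi6D ratios were spread less widely, with a standard deviation of 0.56 against 0.66 and 0.69 in wild type. Their median absolute deviation was 0.352 against 0.358 and 0.381. Whether the falls at mei4 and isp4 follow from this scale was not tested. SPBC19C2.10, 0.31 below the wild-type mean, did not pass the test. The largest difference upward was that of mlo3, which stood at -0.09 and -0.03 in wild type and 0.25 in swi6D and did not pass (limma, adjusted p = 0.0649).

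In clr4D, 0 flank genes passed the test in limma, where 2.4% of all genes fell and 1.53% rose. An unadjusted p under 0.05 was found at 8 of the 94, and at 651 of all 4578 genes. With equal standard deviations 8 flank genes were called and in the deposited ratios 1 was. The genes that fell in swi6D stood in clr4D at 0.63 (pmt1), 0.50 (ubp11), 0.50 (sre1), 1.70 (mei4) and 1.46 (isp4). The first 4 of these lay below both wild-type arrays and isp4 above both. The 2 mutant comparisons share their wild-type arrays, so their likeness is not evidence of its own. The lowest difference of the 94 was -0.26, at ubp11, followed by cdk11 and mug124, and the highest was 0.25, at byr2 (limma, adjusted p = 0.187), none of which passed.

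**Figure D5:**
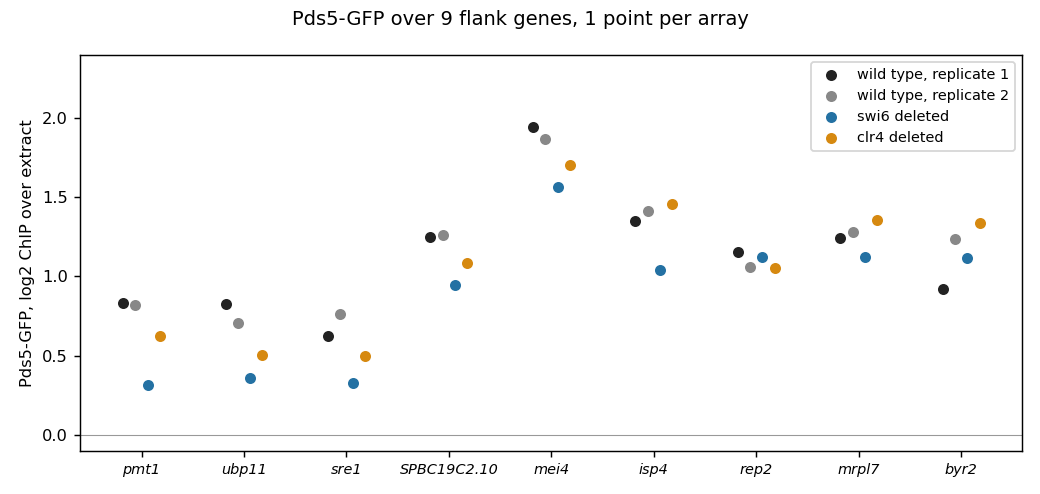
Pds5-GFP (log2 of ChIP over extract, mean over the probes of a gene) at 9 flank genes, with 1 point for each of the 4 arrays and no error bars. At pmt1, ubp11, sre1, mei4 and isp4 the swi6D point lies below both wild-type points, and at rep2 and byr2 it lies between them.

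By window, the mutants stood farthest below wild type nearest the centromere on the right. At 25 to 50 kb there the median Pds5-GFP ratios were 0.50 and 0.59 in wild type, 0.25 in swi6D and 0.29 in clr4D. Both mutant arrays lay below both wild-type arrays by more than those differed. At 50 to 75 kb the medians were 0.55 and 0.65, 0.50 and 0.52, and at 75 to 100 kb the order turned, with -0.01 and 0.09 in wild type, 0.23 in swi6D and 0.15 in clr4D. On the left at 25 to 50 kb they were 0.18 in both wild-type arrays, 0.03 in swi6D and 0.07 in clr4D. In the innermost 25 kb they were -0.20 in both wild-type arrays, -0.42 in swi6D and -0.37 in clr4D. In swi6D 45 of the 94 genes lay below both wild-type arrays and 13 above both, where 35% and 36.5% of all genes did. In clr4D 47 lay below both and 22 above both, where 28.2% and 45.7% of all genes did. Set against replicate 2, which shared its slide, the flank median of swi6D differed by -0.01 on the left and 0.00 on the right, and clr4D was alone on its slide.

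Over both flanks together, neither H3K9me2 nor Pds5-GFP kept to one kind of position between the genes. In wild type the median H3K9me2 was 0.86 over the 626 probes inside genes, 0.98 over the 19 probes between convergent genes, 0.91 over the 107 between divergent genes and 0.94 over the 77 between genes in tandem. In pds5D the same medians were 1.34, 1.23, 1.34 and 1.53. Over all other chromosome probes, spaces between convergent genes stood above the inside of genes in Pds5-GFP, at 0.52 against 0.01 in both wild-type arrays. In the flanks the convergent spaces stood at 0.26 and 0.10, against 0.00 and 0.01 inside genes, and rest on 10 spaces. The sides differed. On the right the convergent spaces stood at 0.66 and 0.79, against 0.19 and 0.24 inside genes. On the left they stood at -0.09 and -0.07, against -0.04 and -0.09. These rest on 9 probes on the right and 10 on the left. Of the convergent spaces, that between atf1, the stress-response transcription factor, and isp4, on the left, was the highest, at 1.29 and 1.32.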

How the data were processed

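Per the labels' protocols, ChIP DNA (Cy5) and whole-cell extract DNA (Cy3) were amplified by random-primed PCR and hybridised together, without a dye swap on any of the 6 arrays, and a bias between the dyes would not drop out of the levels. Agilent Feature Extraction 12.0.3.1 read the scans, and the processed signals are, per the file headers, intensity values after background subtraction and linear dye normalisation, since the recorded lowess factors are 0. The spot and background signals used for normexp are uncorrected intensity values per the file headers, and LogRatio is a log10 ratio per the file headers. Flag columns of the deposited scanner files, named as other values, mark control, outlier, dim and saturated spots. The deposited table holds uncentred log2 ratios. At least 41243 of its 41251 values per array lay within 0.01 of the scanner's ratio, which settled scale and direction. Its column medians were -0.15, -0.21, -0.09, -0.09, -0.07 and -0.05 in the order H3K9me2 wild type, pds5D, Pds5-GFP wild type, swi6D and clr4D.

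A probe's value was log2 of processed Cy5 over processed Cy3 minus the array median over 41551 non-control probes, without outlier spots and without loess or quantile steps. Genes of ASM294v3 were laid on the tiles arm by arm, at the shift where base composition best followed extract signal (-780 bp with r = 0.40 on the left arm of chromosome II, -1640 bp with r = 0.38 on the right). The flanks fitted alone gave -730 and -1630 bp. A gene can thus be misplaced by part of a tile. For Pds5-GFP, limma 3.58.1 (R 4.3.3) was run on gene means (Benjamini-Hochberg over all genes, threshold 0.05), after a check on simulated data. The design row for H3K9me2 has no test.

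Genes were named by this rule. All with at least 3 probes that passed the rule of size or limma, the 3 highest per side on each H3K9me2 array and in mean wild-type Pds5-GFP, the 3 largest differences each way, genes at enriched runs, and flank members of the lists of heterochromatin, cohesin, Mmi1, marker, ribosomal protein, tRNA, Tf2, heat shock and metabolic genes. meu25, mug93, mug124, clg1, scr1 and lin1 were named after their values were seen. The members and lists were chosen with earlier results of these data known. Alternatives were deposited ratios, normexp (offset 50), loess, equal standard deviations, the ChIP channel alone, no shared-suffix probes (11 in the flanks), probes well above background, means, medians of probe differences, other thresholds, each wild-type replicate left out, at least 5 probes per gene and, added after the data were seen, equal median absolute deviations. The number of arrays limits the precision. The p-values rest on the spread of the wild-type pair, which may be technical.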

Additional observations from a re-analysis of the deposited data

How the results depend on the processing

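Of 166 recomputed values, 110 stayed within the tolerance used (a distance set by the 95% interval of a median over probes for H3K9me2, the SD of the wild-type pair for Pds5-GFP, a factor of 1.5 for counts and for shares of probes) and 56 moved. Some of the 110 could not have moved. Leaving out a wild-type replicate shifts a Pds5-GFP flank value by less than the SD of the pair by construction. The same-slide values of swi6D repeat those without replicate 1. All flank probes were well above background, so that alternative left the flank medians as they were. The 110 are therefore no measure of stability. No H3K9me2 difference of a flank changed sign, and the cause of a shift was not tested. The pds5D minus wild-type difference in H3K9me2 (0.40 on the left, 0.66 on the right) was 0.34 and 0.54 with normexp, 0.29 and 0.43 with loess, 0.24 and 0.43 with equal standard deviations, and 0.14 and 0.42 with equal median absolute deviations. On the right it was 0.53 with means and 0.48 as the median of probe differences. The fall of H3K9me2 from near to far on the left (0.42 in wild type, 0.68 in pds5D) was 0.75 and 0.93 on the ChIP channel alone, and 0.47 in pds5D with equal standard deviations. On the right (1.44 and 0.995) it was 2.44 and 2.11 on the ChIP channel alone and 1.06 and 0.69 with equal standard deviations. It was 0.60 in pds5D with loess and 1.63 in wild type with equal median absolute deviations. The share of flank probes enriched (40% in wild type, 70.2% in pds5D) was 18.9% and 44.7% with equal standard deviations and 4.94% and 15.02% at a ratio of 2, and in wild type 75.8% at a ratio of 0.5.

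The fall of Pds5-GFP in wild type on the left (0.02) was 0.25 on the ChIP channel alone and 0.15 with means. On the right (0.26) it was 0.25 in the deposited ratios, 0.24 with normexp, 0.024 with loess, 0.30 with equal standard deviations, 1.04 on the ChIP channel alone, 0.20 without the shared-suffix probes and 0.23 with means. The flank difference of swi6D on the left (-0.025) was -0.11 with normexp, -0.054 with means and -0.056 over probe differences. On the right (0.018) it was -0.13 with normexp, -0.077 with loess, 0.053 with equal standard deviations, -0.062 with means and -0.045 over probe differences, so its sign is not settled. That of clr4D on the left (-0.054) was -0.088 with loess, -0.078 with equal standard deviations, -0.080 with means and -0.087 over probe differences. On the right (-0.015) it was -0.087 with normexp, -0.12 with loess, -0.051 on the ChIP channel alone, -0.069 with means and -0.076 over probe differences. Genes called in swi6D (5) numbered 43 with normexp, 2 with loess, 10 with equal standard deviations and 1 on the ChIP channel alone, and those in clr4D (0) numbered 1 in the deposited ratios and 8 with equal standard deviations. Single-gene values were counted for the 9 genes past the rule of size and the 5 called in swi6D, which were picked for large differences. Of these values, 32 no longer met the rule of size or the test and none changed sign. At other flank genes the H3K9me2 difference did change sign between alternatives, and that of mei4 ran from -1.05 to 0.08.

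No paired analysis was possible because replicate numbers exist in the wild-type Pds5-GFP group alone. Not run were limma without 1 wild-type array or with the slide as a block, which leave no residual degree of freedom, and a same-slide value for clr4D, which shares its slide with no other array. No flank probe was dim or saturated, so signal over background sets no limit here.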

Other observations

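The extract channel, which reads DNA before precipitation, was not flat along the flanks. Relative to its array median it was 0.09 to 0.26 higher over both flanks on all 6 arrays. On the right it stood at 0.40 to 0.73 between 25 and 50 kb and at -0.37 to -0.12 in the outermost window of 25 kb, and on the ChIP channel alone the fall of H3K9me2 from the near to the far window on the right was larger, 2.44 in wild type and 2.11 in pds5D. With both flanks pooled the ratio was nearly unrelated to the extract signal across probes, with r between -0.05 and 0.06 on the 6 arrays. By side, r lay between -0.11 (H3K9me2 in wild type) and 0.17 (Pds5-GFP in swi6D) on the left. On the right it lay between -0.07 and 0.01.

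The excess of pds5D did not stop at the outer limit of the flanks. Between 150 and 300 kb the median H3K9me2 was 0.32 in pds5D and 0.08 in wild type, and 684 of 970 probes (70.52%) were higher in pds5D. On the left pds5D and wild type stood at 0.60 and 0.40 between 150 and 200 kb, at 0.32 and 0.09 between 200 and 250 kb and at 0.17 and 0.03 between 250 and 300 kb. On the right the same windows stood at 0.45 and 0.12, 0.30 and -0.09, and 0.03 and -0.10. Of 500 windows of 25 kb over the 3 chromosomes, 39 (7.8%) had a wild-type median of 1 or more and 62 (12.4%) had one in pds5D.

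The flanks hold 5 snoRNA genes, each read by its 2 nearest probes. For H3K9me2, SPNCRNA.1709, at 28.8 kb on the right, averaged 2.3 in wild type and 1.85 in pds5D, and snR95, at 128.1 kb on the left, 1.24 and 0.72. The other 3 were higher in pds5D. On the right, snoR54 averaged 1.44 and 2.1, snoZ15 -0.10 and 0.43, and snoR39b 0.11 and 0.97.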
